A study of Homo sapiens with 9 samples.

Results

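The TGF-beta and BMP pathway was followed through 32 genes, all 32 of which were found by gene name among the 36785 genes of the deposited table and all 32 of which were tested. The genes were taken by name as ligands, receptors, SMADs, latent binding proteins, antagonists and direct targets. The cells were SKOV3, an established line grown from a human ovarian tumour. Every group had been transduced with lentivirus, and mRNA of each was sequenced in 3 libraries. The hairpin groups were sh3, labelled STXBP6 knockdown_3, and sh1, labelled STXBP6 knockdown_1, and both were set against shNC, whose genotype label is NC. STXBP6 encodes amisyn, a syntaxin-binding protein of regulated exocytosis. Nothing in the labels tells if libraries of 1 group were grown apart from each other or if hairpin lines are clones, so each p-value measures the spread between these libraries only.

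TGF-beta, activin and BMP ligands are dimers that bring together type I and type II receptor kinases, which phosphorylate SMAD proteins. TGF-beta and activin receptors act on SMAD2 and SMAD3, BMP receptors act on SMAD1, SMAD5 and SMAD9, and both sets of SMADs share SMAD4 as a partner. Many genes that the pathway induces hold it back in turn, among them the inhibitory SMADs, and TGF-beta itself is secreted in a latent form tethered to the matrix by latent binding proteins. In ovarian carcinoma cells the TGF-beta branch is known for its part in matrix production and mesenchymal traits, and the BMP branch for inducing the ID genes.

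The libraries held 57654447 to 69264400 counts, and 21296 genes passed the filter on low counts. STXBP6 itself had 20, 31 and 18 counts in sh3, 7, 4 and 26 in sh1 and 4, 0 and 15 in shNC. These low counts did not show a knockdown, so the directions below rest on the labels. Mean STXBP6 was higher with the hairpins, opposite to a knockdown, at 0.366 CPM in sh3 and 0.186 in sh1 against 0.107 in shNC. Every sh3 library lay above every shNC library, while sh1 and shNC overlapped. Tested by exact permutation, two-sided, sh3 had p = 0.1 and sh1 had p = 0.5. The smallest p that 3 against 3 libraries allow is 0.1. The fitted change was 1.81 ± 1.01 (adjusted p = 0.23, edgeR) in sh3, or 3.54 without shNC replicate 3 (adjusted p = 0.046), and 0.87 ± 1.02 (adjusted p = 0.56) in sh1. Of 8 markers of SKOV3 and ovarian carcinoma, 6 had a mean of at least 1 FPKM, led by ERBB2 with means of 853 FPKM in sh3, 500.0 in sh1 and 910.0 in shNC, while WT1 and MUC16 stayed under 1 FPKM in every library. Of the leukocyte markers 4 of 5 were under 1 FPKM in all 9 libraries, and the list summed to 17.5 to 18.6 FPKM in sh3, 10.4 to 11.2 in sh1 and 13.7 to 15.0 in shNC, nearly all of it CD68. Of the endothelial markers 5 of 6 were under 1 FPKM throughout, with sums of 2.73 to 2.93, 0.978 to 1.16 and 1.96 to 2.21 FPKM in the same order, mostly KDR. Of the fibroblast and pericyte markers 4 of 7 were under 1 FPKM throughout, with sums of 12.4 to 13.5, 16.9 to 17.4 and 15.3 to 18.6 FPKM, mostly LUM and COL1A1. COL3A1, of the same list, had means of 1.93 FPKM in sh3, 0.973 in sh1 and 1.59 in shNC. PTPRC, PECAM1, VWF and PDGFRB, picked here from the low markers, had group means of at most 0.174 FPKM. CD68, KDR, LUM, COL1A1 and COL3A1 lay higher. The replicate pairs that include shNC replicate 3 differed most (chi-square per degree of freedom up to 18.9, where 1 would be counting noise), so values whose call changed without this library are also given without it.

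Levels are given as CPM, counts scaled by library size and TMM factors, within a gene, and as the authors' FPKM, which divides by gene length, between genes. A gene was called when its adjusted p was under 0.05 in edgeR's quasi-likelihood test over all 21296 genes, changes are log2 fold changes with their standard errors, and an interval is the 95% interval of such a change. Both hairpins are set against the same 3 shNC libraries, so their values stand side by side and are not independent of each other.

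In sh3, 15 of the 32 genes rose and 5 fell against shNC, where 14.4% of all tested genes were called higher and 12.4% lower. The 15 include CDKN2B, which passed the filter on low counts only because of its sh3 level. In sh1, 9 rose and 7 fell, against 19.9% and 18.8% of all tested genes. Set directly against sh1, sh3 had 12 genes higher and 6 lower, against 12.9% and 13%. The called share was 62.5% of the 32 in sh3, 50% in sh1 and 56.2% between the hairpins, beside 26.9%, 38.7% and 25.9% of all tested genes. Of 6 housekeeping genes (ACTB, GAPDH, TBP, HPRT1, PPIA and B2M), 33.3%, 83.3% and 50% were called in the same order. The 32 genes and the lists below were chosen with earlier results of these data known. Their shares are therefore descriptive and do not test the pathway. The median absolute change of the 32 genes was 0.30 in sh3 and 0.26 in sh1, beside 0.22 and 0.30 over all tested genes, and their median change was 0.17 and 0.03, beside -0.01 and -0.02. The count of 5 that fell in sh3 became 3 without sh3 replicate 1, 2 or 3 and 7 without shNC replicate 3.

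**Figure D1:**
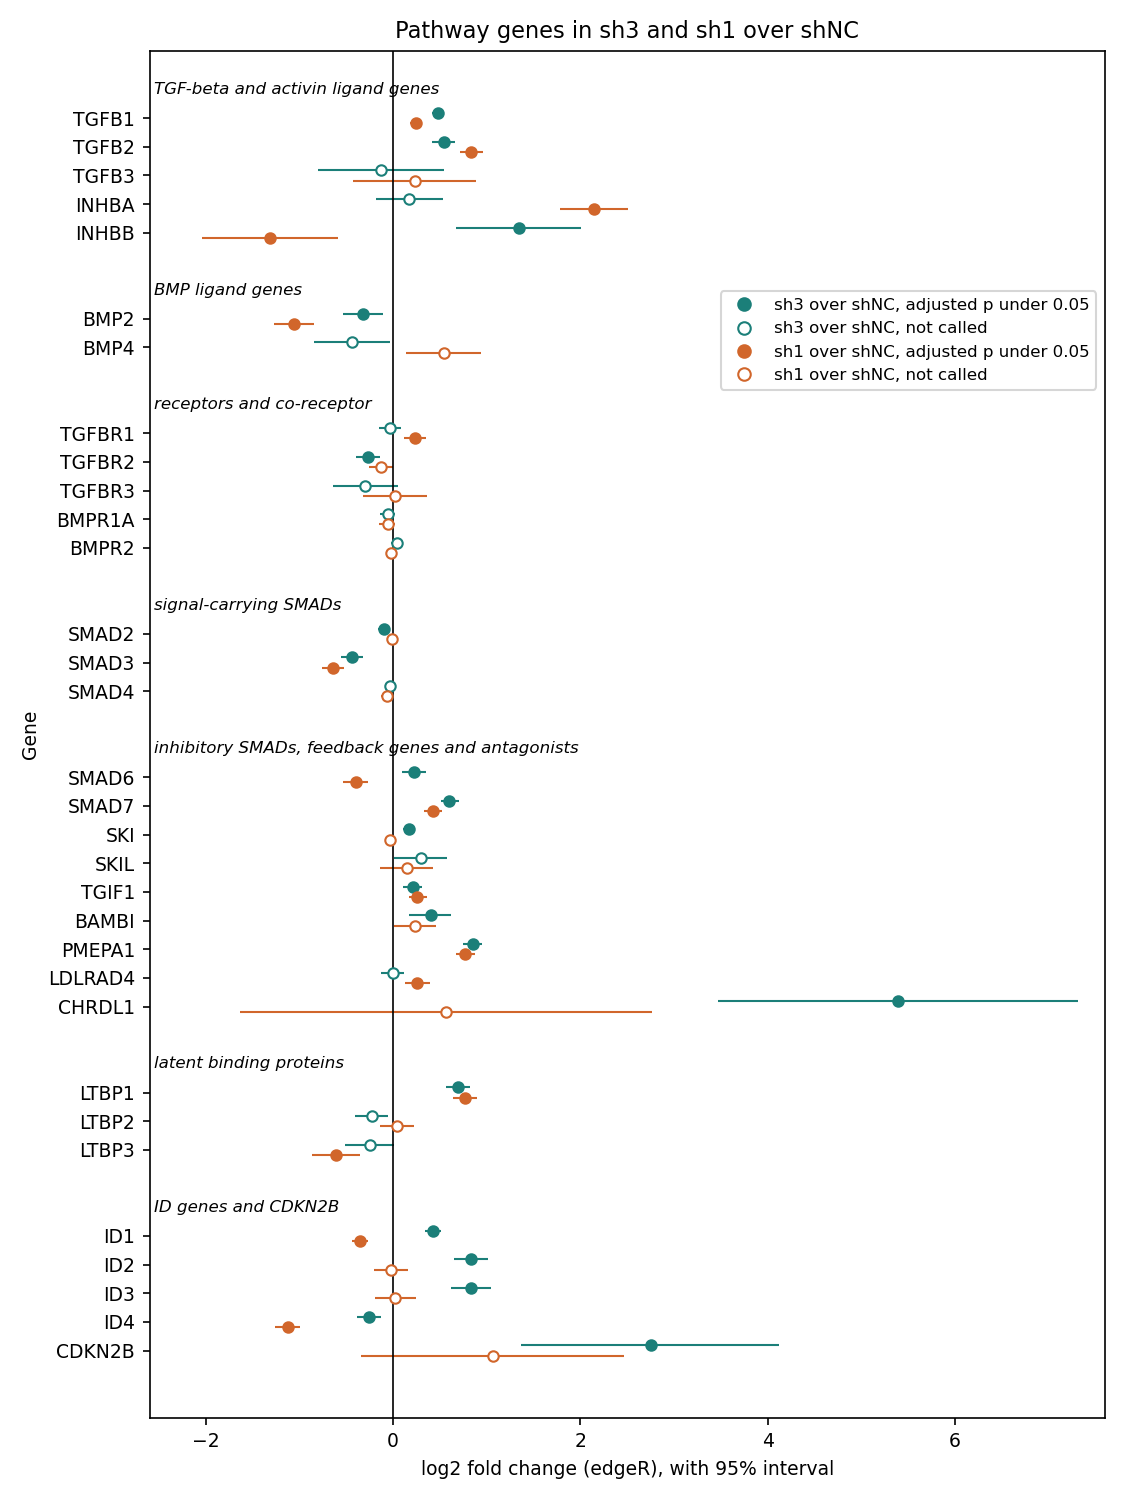
Log2 fold change of each of the 32 genes in sh3 (green) and sh1 (orange) over shNC from the edgeR fit. Bars are the approximate 95% interval from a normal distribution, narrower than the test implies, and filled points have an adjusted p under 0.05. ID1, SMAD6 and INHBB lie on opposite sides of 0 for the hairpins, PMEPA1 and LTBP1 lie to the right for both, and CHRDL1 in sh3 stands at 5.39.

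The length-scaled levels were far apart in shNC, with 10 of the 32 genes at 10 FPKM or more and 8 under 1 FPKM. ID1, which encodes a helix-loop-helix protein that binds E proteins and keeps them from DNA, led with 493 ± 25.3 FPKM in sh3, 281 ± 8.64 in sh1 and 367 ± 21.3 in shNC (SD, n = 3 each). PMEPA1, a membrane protein induced by TGF-beta that keeps SMAD2 and SMAD3 from the receptor, came next with 75.2 ± 0.558, 69.5 ± 0.0267 and 41.6 ± 3.89 FPKM in the same order of groups. TGFB1 was the most abundant ligand gene at 29.8 ± 0.932 FPKM in shNC, followed by BMP2 at 4.33 ± 0.491 and TGFB2 at 1.84 ± 0.0622. BMP4, INHBA, INHBB and TGFB3 were each under 1 FPKM in shNC, at 0.966, 0.327, 0.252 and 0.171. Among the receptors the type II genes stood highest, with TGFBR2 at 14.8 ± 1.70 and BMPR2 at 11.5 ± 0.320 FPKM in shNC, above the type I genes BMPR1A at 8.95 ± 0.379 and TGFBR1 at 4.65 ± 0.0298. At the bottom of the order, CDKN2B and CHRDL1 were close to the limit of detection in shNC, at 0.0148 and 0.0280 FPKM. The neighbours SMAD3, LTBP1 and BMPR2, at 11.6 ± 1.26, 11.6 ± 1.40 and 11.5 ± 0.320 FPKM in shNC, did not differ beyond their spread.

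**Figure D2:**
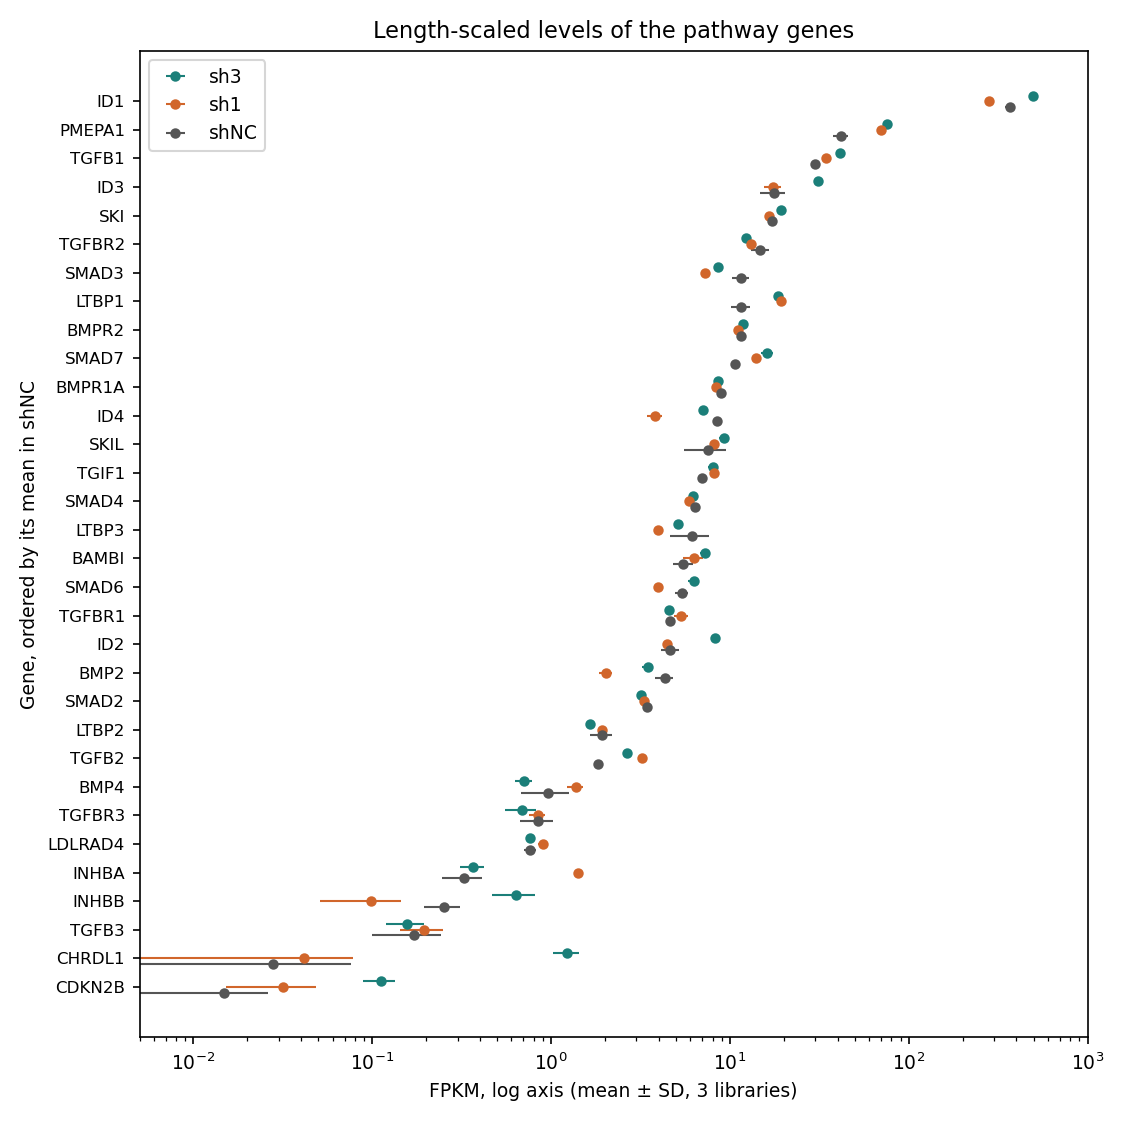
Mean FPKM of each gene on a log axis in sh3 (green), sh1 (orange) and shNC (grey), with SD over 3 libraries and genes ordered by their shNC mean. ID1 lies highest in every group, CDKN2B and CHRDL1 lie lowest in shNC, and CHRDL1 in sh3 reaches 1.23 FPKM. A bar that reaches below the range of the axis is cut at the left edge.

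Of 5 TGF-beta and activin ligand genes, 3 rose and 0 fell in sh3, and 3 rose and 1 fell in sh1. The called shares were 60% in sh3 and 80% in sh1, beside 26.9% and 38.7% of all tested genes. TGFB1 and TGFB2 rose with both hairpins, while the activin subunit genes parted the hairpins. TGFB1 (ENSG00000105329, chromosome 19, 41301587 to 41353922, minus strand), the main TGF-beta ligand gene of these cells, had 147, 144 and 148 CPM in sh3, 127, 124 and 120.5 in sh1 and 107, 106 and 102 in shNC. The 3 groups did not overlap, with sh3 highest and shNC lowest. TGFB1 rose in sh3 (0.48 ± 0.033, adjusted p = 1.1e-06) and in sh1 (0.24 ± 0.033, adjusted p = 9.8e-05), and was higher in sh3 than in sh1 (0.24 ± 0.032, adjusted p = 0.00026). Its span in the table overlaps HNRNPUL1 and CCDC97 on the other strand, at means of 62.5 and 13.4 FPKM against 35.2 for TGFB1. The strand setting of the counting is unknown here, so TGFB1 and any other gene with such a partner are uncertain.

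TGFB2 (ENSG00000092969, chromosome 1, 218345336 to 218444619, plus strand), whose product depends on the co-receptor TGFBR3 for strong binding, had 17.8, 17.1 and 17.6 CPM in sh3, 21.8, 21.5 and 21.1 in sh1 and 12.2, 11.6 and 12.4 in shNC. Here sh1 was highest and shNC lowest, again without overlap. The change was 0.54 ± 0.064, adjusted p = 7.2e-05 in sh3 and 0.83 ± 0.064, adjusted p = 9.7e-07 in sh1, and sh3 was lower than sh1 (-0.30 ± 0.063, adjusted p = 0.0047). As a share of the summed FPKM of the 3 TGFB genes, TGFB2 made up 6.04% ± 0.0586 in sh3, 8.50% ± 0.0596 in sh1 and 5.80% ± 0.320 in shNC (SD, n = 3 each). TGFB3 had 46, 66 and 57 counts in sh3, 68, 50 and 101 in sh1 and 46, 98 and 47 in shNC and was called in neither, with intervals of -0.80 to 0.54 in sh3 and -0.43 to 0.89 in sh1.

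INHBA (ENSG00000122641, chromosome 7, 41667168 to 41705335, minus strand) encodes the beta A subunit, whose dimer is activin A. It had 3.88, 3.18 and 2.86 CPM in sh3, 12.8, 13.1 and 13.1 in sh1 and 2.11, 3.16 and 3.54 in shNC. Every sh1 library stood above all others, while sh3 and shNC overlapped. INHBA rose 4.42-fold in sh1 (2.15 ± 0.184, adjusted p = 2.5e-06), gave 0.17 ± 0.182, adjusted p = 0.55 in sh3, and was lower in sh3 than in sh1 (-1.97 ± 0.183, adjusted p = 1.3e-05). INHBB (ENSG00000163083, chromosome 2, 120346136 to 120351803, plus strand), which encodes the beta B subunit of activin B, had 150, 100 and 172 counts in sh3, 22, 10 and 35 in sh1 and 62, 70 and 39 in shNC. No group overlapped another, with sh3 highest and sh1 lowest.

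INHBB rose in sh3 (1.34 ± 0.343, adjusted p = 0.012) and fell in sh1 (-1.31 ± 0.368, adjusted p = 0.014), and the direct comparison of sh3 with sh1 gave 2.65 ± 0.369, adjusted p = 0.00028. The mean level stayed under 1 FPKM in every group. The sh3 call was lost without sh3 replicate 3 (1.14, adjusted p = 0.059; 0.0022 to 0.059 across alternatives), and the sh1 call with limma on log2(FPKM + 1), a scale that shrinks low genes (-0.19, adjusted p = 0.078; 0.0058 to 0.078 across alternatives). INHBA made up 37.1% ± 7.83 of the summed FPKM of both subunit genes in sh3, 93.6% ± 2.92 in sh1 and 56.1% ± 10.3 in shNC (SD, n = 3 each).

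Of the BMP ligand genes, BMP2 was lower in both hairpin groups. BMP2 (ENSG00000125845, chromosome 20, 6767686 to 6780246, plus strand), a ligand of the BMP type I receptors, had 13.6, 14.1 and 12.2 CPM in sh3, 7.15, 8.39 and 8.34 in sh1 and 17.1, 18.1 and 14.5 in shNC. The sh1 libraries were the lowest, and sh3 lay below all shNC libraries by a narrow margin. BMP2 fell 2.08-fold in sh1 (-1.06 ± 0.109, adjusted p = 1.1e-05) and fell in sh3 (-0.32 ± 0.107, adjusted p = 0.047), and it was higher in sh3 than in sh1 (0.74 ± 0.109, adjusted p = 0.00042). The sh3 call was lost under 9 of 16 alternatives, among them the fits without sh3 replicate 3 (-0.25, adjusted p = 0.18) and without shNC replicate 2 (-0.25, adjusted p = 0.19, range 0.016 to 0.19).

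BMP4 (ENSG00000125378, chromosome 14, 53949736 to 53956825, minus strand), the close relative of BMP2, had 2.37, 2.196 and 2.65 CPM in sh3, 5.26, 4.47 and 4.48 in sh1 and 2.35, 3.10 and 4.33 in shNC. The sh1 libraries lay above the sh3 libraries and just above shNC, whose values were wide apart. BMP4 was lower in sh3 than in sh1 (-0.98 ± 0.207, adjusted p = 0.0045). Against shNC it was not called, with -0.44 ± 0.207, adjusted p = 0.15 in sh3 and 0.54 ± 0.204, adjusted p = 0.056 in sh1. The sh1 difference passed the threshold without shNC replicate 3 (0.80, adjusted p = 0.005) and with DESeq2 (0.54, adjusted p = 0.049), and the sh3 difference did so without shNC replicate 1 (-0.62, adjusted p = 0.038), over ranges of 0.005 to 0.19 in sh1 and 0.038 to 0.55 in sh3.

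**Figure D3:**
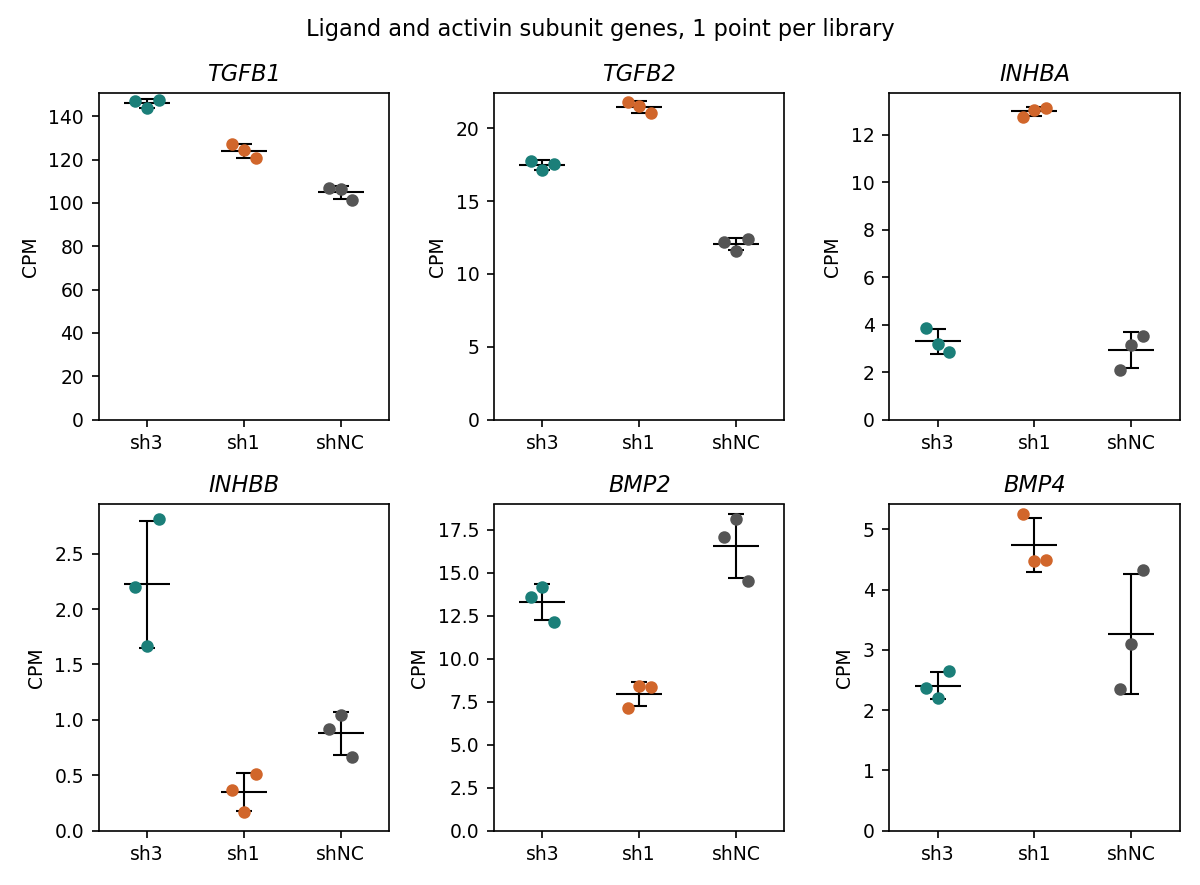
CPM per library for 6 ligand and activin subunit genes in sh3, sh1 and shNC, with 1 point per library and a bar for mean ± SD over 3 libraries on axes that start at 0. INHBA is high in sh1 alone (13.0 ± 0.202 CPM), INHBB is highest in sh3, and BMP2 is lowest in sh1 (7.96 ± 0.699 CPM, against 16.6 ± 1.84 in shNC).

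Of 5 receptor and co-receptor genes, 1 fell and 0 rose in sh3, and 1 rose and 0 fell in sh1 (edgeR). This is 20% called with each hairpin, beside 26.9% of all tested genes in sh3 and 38.7% in sh1. TGFBR2, the type II receptor that binds TGF-beta first, had 89.5, 88.8 and 93.4 CPM in sh3, 104, 98.2 and 97.5 in sh1 and 116, 117 and 95.2 in shNC, and the change was -0.27 ± 0.067, adjusted p = 0.0098 in sh3 and -0.13 ± 0.067, adjusted p = 0.15 in sh1. The value of shNC replicate 3 lay below every sh1 library and above every sh3 library, and without that library the sh1 difference was -0.22 (adjusted p = 6.7e-04, range 6.7e-04 to 0.45). Over sh1, sh3 gave -0.14 ± 0.067, adjusted p = 0.16, which was called without shNC replicate 3 (adjusted p = 0.0096) and with only the 2 groups compared (adjusted p = 0.017; 0.0096 to 0.37 across alternatives). TGFBR1, the type I receptor of TGF-beta, gave -0.03 ± 0.059, adjusted p = 0.76 in sh3 and rose in sh1 (0.23 ± 0.059, adjusted p = 0.0071). BMPR1A and BMPR2 were called in neither group. BMPR1A, a type I receptor, had intervals of -0.14 to 0.02 in sh3 and -0.15 to 0.02 in sh1, and BMPR2, a type II receptor, had -0.02 to 0.09 and -0.08 to 0.04. TGFBR3, the co-receptor betaglycan, gave -0.30 ± 0.175, adjusted p = 0.26 in sh3 and 0.02 ± 0.174, adjusted p = 0.94 in sh1, with wider intervals (-0.64 to 0.05 and -0.32 to 0.36).

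Among the SMADs that carry the signal, SMAD3 fell with both hairpins while SMAD2 and SMAD4 differed from shNC by at most 0.10 in the fit over all 9 libraries. SMAD3 (ENSG00000166949, chromosome 15, 67063763 to 67195169, plus strand), which binds DNA directly, had 92.9, 93.4 and 90.7 CPM in sh3, 81.4, 80.6 and 78.7 in sh1 and 129, 136 and 110.3 in shNC. All 6 hairpin libraries lay below shNC, where replicate 3 was lowest. SMAD3 fell in sh3 (-0.44 ± 0.061, adjusted p = 0.00025) and in sh1 (-0.64 ± 0.062, adjusted p = 6.4e-06). SMAD2, the other SMAD of the TGF-beta branch, gave -0.10 ± 0.029, adjusted p = 0.018 in sh3 and -0.01 ± 0.029, adjusted p = 0.88 in sh1, and the common partner SMAD4 gave -0.03 ± 0.031, adjusted p = 0.53 and -0.07 ± 0.031, adjusted p = 0.11. With library totals the sh1 value of SMAD4 was -0.11 and was called (adjusted p = 0.02; 0.02 to 0.32 across alternatives). The sh3 call of SMAD2 was lost under 6 of 16 alternatives (adjusted p 0.0051 to 0.14), among them the fits without sh3 replicate 2, sh3 replicate 3 or shNC replicate 1. SMAD3 made up 72.9% ± 0.211 of the summed FPKM of SMAD2 and SMAD3 in sh3, 68.6% ± 0.716 in sh1 and 77.1% ± 2.2 in shNC (SD, n = 3 each).

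Of 9 genes that restrain the pathway (inhibitory SMADs, feedback genes and antagonists), 7 rose and 0 fell in sh3. In sh1, 4 rose, 1 fell and 4 were not called. The called shares were 77.8% in sh3 and 55.6% in sh1, beside 26.9% and 38.7% of all tested genes. PMEPA1 (ENSG00000124225, chromosome 20, 57648392 to 57711536, minus strand) had 469.8, 469 and 459 CPM in sh3, 437, 439.8 and 444 in sh1 and 274, 268 and 231 in shNC. All hairpin libraries lay well above shNC, and every sh3 library lay slightly above every sh1 library. The rise was 0.85 ± 0.051, adjusted p = 4.2e-07 in sh3 and 0.77 ± 0.051, adjusted p = 3.1e-07 in sh1, and sh3 over sh1 was not called (0.08 ± 0.051, adjusted p = 0.28). That small difference of 0.08 was called without shNC replicate 3 (adjusted p = 0.011) and with only the 2 groups compared (adjusted p = 0.0091; 0.0091 to 0.45 across alternatives). PMEPA1 overlaps NKILA on the other strand, which had a mean of 4.2 FPKM against 62.1 for PMEPA1.

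SMAD7 (ENSG00000101665, chromosome 18, 48919853 to 48950965, minus strand), the inhibitory SMAD that acts on both branches and is itself induced by TGF-beta, had 66.0, 74.8 and 66.4 CPM in sh3, 61.2, 60.7 and 61.4 in sh1 and 46.3, 45.0 and 45.0 in shNC. The shNC libraries were tightly grouped and below all others. SMAD7 rose in sh3 (0.60 ± 0.05, adjusted p = 4.4e-06) and in sh1 (0.43 ± 0.05, adjusted p = 2.8e-05). SMAD6 (ENSG00000137834, chromosome 15, 66702236 to 66782849, plus strand), which acts mainly on the BMP branch, had 54.0, 60.6 and 59.8 CPM in sh3, 36.4, 39.5 and 36.8 in sh1 and 45.9, 49.2 and 54.2 in shNC. It was lowest in sh1, and the ranges of sh3 and shNC overlapped by a narrow margin.

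SMAD6 fell in sh1 (-0.40 ± 0.067, adjusted p = 0.00045), rose in sh3 (0.22 ± 0.067, adjusted p = 0.026), and was higher in sh3 than in sh1 (0.63 ± 0.067, adjusted p = 3.9e-05). The sh3 call was lost under 6 of 16 alternatives (adjusted p 0.0047 to 0.1), among them the fits without sh3 replicate 2, sh3 replicate 3, shNC replicate 1 or shNC replicate 2. CHRDL1 (ENSG00000101938, chromosome X, 110673856 to 110795819, minus strand), a secreted protein that binds BMPs and keeps them from their receptors, had 296, 363 and 322 counts in sh3, 14, 19 and 0 in sh1 and 24, 0 and 0 in shNC. It was thus present in every sh3 library and at or near 0 elsewhere.

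CHRDL1 rose in sh3 (5.39 ± 0.98, adjusted p = 0.0016) and gave 0.56 ± 1.122, adjusted p = 0.75 in sh1. All 24 shNC counts came from replicate 1. Without it the fitted value was 11.35 in sh3 and 6.52 in sh1, where the sh1 difference was then called (adjusted p = 0.033; 0.033 to 0.99 across alternatives). Neither value is a bound, since the other shNC libraries held 0 counts. Against a floor of 3 counts over those 2 libraries together, CHRDL1 was at least 215-fold higher in sh3 than in them. This is not a bound for shNC as a group, since it leaves out replicate 1 and covers counting error only. Replicate 1 had 0.356 CPM, against a mean of 5.21 CPM in sh3, and the fit over all libraries gave 41.9-fold. Without shNC replicate 2 the fitted log2 value in sh3 was 4.80. The direct difference of sh3 from sh1 was 4.83 ± 0.942, adjusted p = 0.0027, or 4.21 without sh1 replicate 3 and 5.53 without sh1 replicate 2, and DESeq2 did not call it (4.81, adjusted p = 0.087; 1.7e-05 to 0.087 across alternatives).

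The remaining restraining genes moved by less. BAMBI, a receptor-like protein that lacks the kinase domain, gave 0.40 ± 0.115, adjusted p = 0.023 in sh3 and 0.23 ± 0.115, adjusted p = 0.14 in sh1. The sh3 call was lost under 4 of 16 alternatives (adjusted p 0.0051 to 0.093), each of which left out 1 library, sh3 replicate 1 or 3 or shNC replicate 1 or 2. Without shNC replicate 3 the sh1 difference was called as well (0.33, adjusted p = 0.042; 0.042 to 0.48 across alternatives). With all 9 libraries sh3 over sh1 was not called (interval -0.06 to 0.39). TGIF1, a homeobox co-repressor of SMADs, rose in sh3 (0.21 ± 0.049, adjusted p = 0.0071) and in sh1 (0.26 ± 0.049, adjusted p = 0.00096). The SMAD co-repressor SKI rose in sh3 (0.17 ± 0.029, adjusted p = 0.0012) and gave -0.03 ± 0.029, adjusted p = 0.54 in sh1. SKIL, its relative and a TGF-beta target, had 76.5, 44.4 and 69.1 CPM in shNC, where replicate 2 was far below the others, and was not called in sh3 (0.30 ± 0.145) or sh1 (0.15 ± 0.145). Without shNC replicate 1 its sh3 value was 0.46 (adjusted p = 0.037, range 0.037 to 0.34), and sh3 over sh1 was called with only the 2 groups compared (0.15, adjusted p = 0.023; 0.023 to 0.73 across alternatives). LDLRAD4, which is related to PMEPA1, rose in sh1 (0.26 ± 0.066, adjusted p = 0.0075) and was not called in sh3 (interval -0.13 to 0.12). Its sh1 call was lost with limma on FPKM (adjusted p up to 0.19).

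The latent binding proteins divided between a gene that rose and genes that did not. LTBP1 (ENSG00000049323, chromosome 2, 32946953 to 33399509, plus strand), which ties latent TGF-beta to the matrix, had 148, 149 and 148 CPM in sh3, 159.8, 159 and 151 in sh1 and 98.9, 97.5 and 79.4 in shNC. The hairpin libraries all lay above shNC. The rise was 0.69 ± 0.066, adjusted p = 1.5e-05 in sh3 and 0.77 ± 0.066, adjusted p = 2.6e-06 in sh1. As a share of the summed FPKM of LTBP1, LTBP2 and LTBP3, which leaves out LTBP4, LTBP1 made up 73.3% ± 0.337 in sh3, 76.6% ± 0.697 in sh1 and 59.2% ± 2.78 in shNC (SD, n = 3 each).

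LTBP3 (ENSG00000168056, chromosome 11, 65538559 to 65558930, minus strand), another carrier of latent TGF-beta, had 63.0, 64.5 and 65.7 CPM in sh3, 50.2, 50.8 and 49.9 in sh1 and 85.4, 89.5 and 55.1 in shNC. In shNC replicate 3 stood far below the other libraries of its group, and below every sh3 library. LTBP3 fell in sh1 (-0.61 ± 0.134, adjusted p = 0.0033), with values of -0.80 to -0.48 when single libraries were left out. In sh3 the change was -0.25 ± 0.133, adjusted p = 0.2, and without shNC replicate 3 it was -0.44 (adjusted p = 8.1e-06; 8.1e-06 to 0.59 across alternatives). Over sh1, sh3 gave 0.36 ± 0.134, adjusted p = 0.074, and the same 0.36 was called without shNC replicate 3 (adjusted p = 2.2e-05) and with only the 2 groups compared (adjusted p = 4.4e-05; 2.2e-05 to 0.17 across alternatives). LTBP2, a matrix protein of the same family that does not bind latent TGF-beta, gave -0.23 ± 0.093, adjusted p = 0.098 in sh3 and 0.04 ± 0.093, adjusted p = 0.79 in sh1. Without shNC replicate 3 its sh3 value was -0.34 (adjusted p = 0.004; 0.004 to 0.32 across alternatives). Over sh1, sh3 gave -0.27 ± 0.093, adjusted p = 0.056, which was called without shNC replicate 3 (adjusted p = 0.0082), with only the 2 groups compared (adjusted p = 0.014) and with DESeq2 (adjusted p = 0.04; 0.0082 to 0.16 across alternatives).

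**Figure D4:**
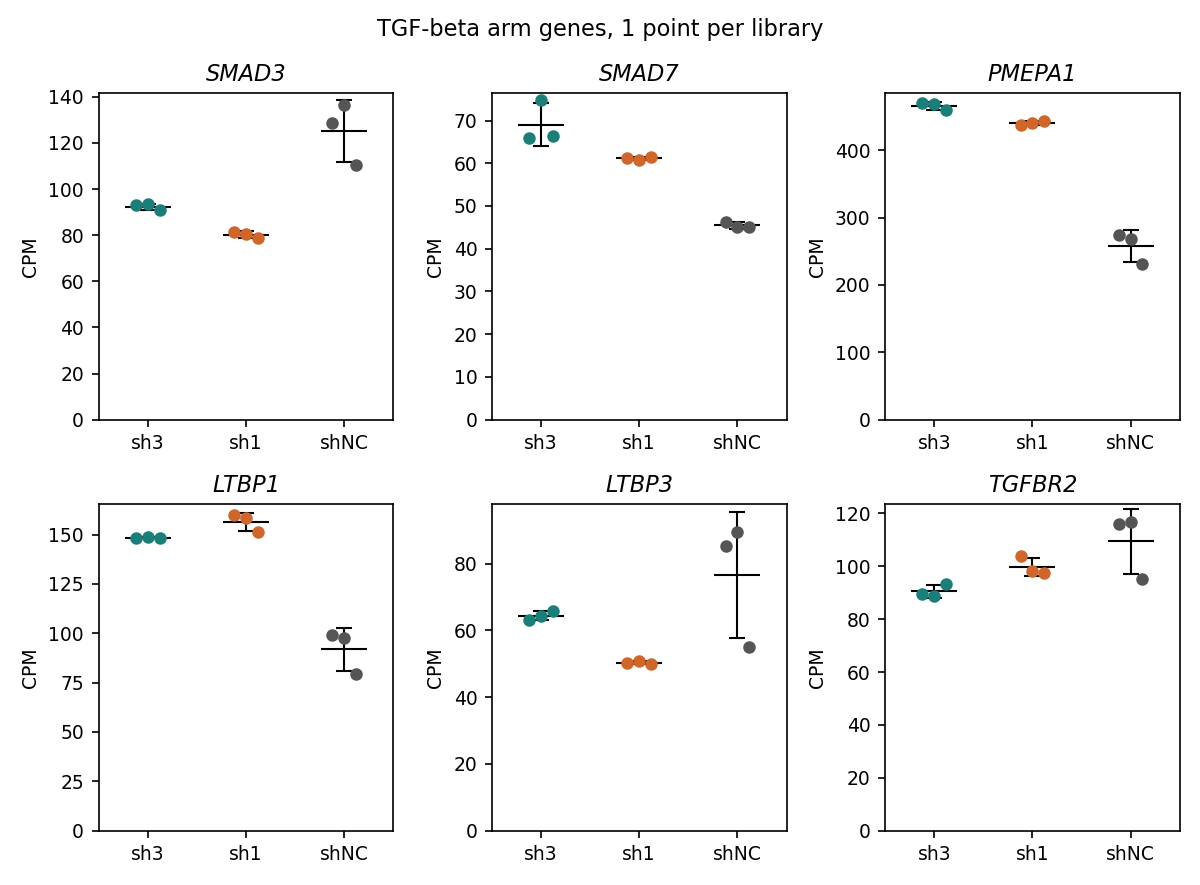
CPM per library for 6 genes of the TGF-beta branch in sh3, sh1 and shNC, with 1 point per library and a bar for mean ± SD over 3 libraries on axes that start at 0. SMAD7, PMEPA1 and LTBP1 lie above shNC in all 6 hairpin libraries, SMAD3 lies below, and the low shNC point of LTBP3 is replicate 3.

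The ID genes encode helix-loop-helix proteins without a DNA-binding part and are direct targets of BMP SMADs, as is SMAD6. All 5 were called higher in sh3 than in sh1, so the 250 bases before their RefSeq start (GRCh38.p14) are shown, written 5′ to 3′ on the gene's strand. Capitals mark the letters of 3 SMAD-related motifs searched on both strands: the palindrome GTCTAGAC, CAGAC, which many SMAD3 and SMAD4 sites hold, and GGCGCC, a core of BMP-responsive GC-rich elements. The ID1 window is chr20:31605039-31605288, plus strand, the ID2 window chr2:8681806-8682055, plus strand, the ID3 window chr1:23559502-23559751, minus strand, the ID4 window chr6:19837120-19837369, plus strand and the SMAD6 window chr15:66701986-66702235, plus strand.
ID1: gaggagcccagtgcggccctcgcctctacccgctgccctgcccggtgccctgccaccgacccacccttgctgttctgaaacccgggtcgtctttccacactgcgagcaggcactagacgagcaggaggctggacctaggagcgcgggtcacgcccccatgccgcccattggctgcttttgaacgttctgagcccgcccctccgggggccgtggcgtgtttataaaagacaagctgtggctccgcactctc
ID2: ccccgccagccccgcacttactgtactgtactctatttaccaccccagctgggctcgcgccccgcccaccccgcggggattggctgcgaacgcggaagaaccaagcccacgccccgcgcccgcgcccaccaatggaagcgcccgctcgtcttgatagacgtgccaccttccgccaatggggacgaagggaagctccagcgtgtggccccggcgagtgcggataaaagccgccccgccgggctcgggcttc
ID3: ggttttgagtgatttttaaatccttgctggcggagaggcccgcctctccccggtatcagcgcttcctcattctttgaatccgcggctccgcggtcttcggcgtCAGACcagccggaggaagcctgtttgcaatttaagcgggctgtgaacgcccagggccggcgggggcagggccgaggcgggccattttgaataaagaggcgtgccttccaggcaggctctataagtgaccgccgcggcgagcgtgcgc
ID4: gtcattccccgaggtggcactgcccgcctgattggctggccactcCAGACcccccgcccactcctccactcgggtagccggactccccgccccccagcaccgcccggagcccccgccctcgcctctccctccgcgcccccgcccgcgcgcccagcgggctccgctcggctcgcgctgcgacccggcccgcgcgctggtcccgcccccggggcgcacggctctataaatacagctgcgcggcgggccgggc
SMAD6: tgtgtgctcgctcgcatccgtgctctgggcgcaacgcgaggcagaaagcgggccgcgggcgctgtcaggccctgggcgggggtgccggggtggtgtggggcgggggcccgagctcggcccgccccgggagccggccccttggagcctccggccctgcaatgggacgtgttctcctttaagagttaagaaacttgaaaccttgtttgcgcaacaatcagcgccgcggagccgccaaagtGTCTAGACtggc
The SMAD6 window held GTCTAGAC, starting 12 bases before the start, which 0.182% of 35116 windows of all genes held. ID3 and ID4 held CAGAC, which 38% of the windows held, and 0 of these 5 windows held GGCGCC, which 16.4% held. No matches overlapped each other. A match is a run of letters and not a measured binding site, and the absence of one concerns this window only. Across the 32 genes, 30 had at least 1 window in the table, which does not list a window for BMP2 or SKI. Of the 68 windows of these 30 genes, 1 held GTCTAGAC, 31 held CAGAC and 12 held GGCGCC. The SMAD6 match is thus the only match to the palindrome among the 68 windows searched.

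ID1 (ENSG00000125968, chromosome 20, 31605283 to 31606515, plus strand) had 624, 671 and 678 CPM in sh3, 393, 379 and 376 in sh1 and 458, 492 and 518 in shNC. The groups did not overlap, with sh3 highest, shNC between and sh1 lowest. ID1 rose in sh3 (0.43 ± 0.045, adjusted p = 2.9e-05) and fell in sh1 (-0.35 ± 0.045, adjusted p = 6e-05), and the direct difference of sh3 from sh1 was 0.78 ± 0.045, adjusted p = 3.2e-07. Each of the 3 calls held under all 16 alternatives, with an adjusted p of at most 0.0007.

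ID2 (ENSG00000115738, chromosome 2, 8678845 to 8684453, plus strand) and ID3 (ENSG00000117318, chromosome 1, 23557926 to 23559501, minus strand) were higher in sh3 than in both other groups. ID2 had 20.5, 20.01 and 18.7 CPM in sh3, 11.3, 11.1 and 10.6 in sh1 and 10.3, 10.5 and 12.6 in shNC. The sh1 and shNC libraries overlapped, with shNC replicate 3 the highest of them. It rose 1.77-fold in sh3 (0.83 ± 0.093, adjusted p = 4.7e-05), with an interval of -0.20 to 0.16 in sh1. ID3 had 49.0, 50.7 and 51.3 CPM in sh3, 26.8, 32.4 and 27.4 in sh1 and 23.1, 29.8 and 32.3 in shNC. The sh1 and shNC values overlapped, and every sh3 value lay above both groups. ID3 rose 1.78-fold in sh3 (0.83 ± 0.107, adjusted p = 0.00014), with an interval of -0.19 to 0.24 in sh1. Against sh1, sh3 was higher by 0.85 ± 0.093 for ID2 and by 0.80 ± 0.107 for ID3.

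Of the ID genes and CDKN2B, 4 of 5 rose and 1 fell in sh3, and 0 rose and 2 fell in sh1. The sh3 rises include CDKN2B, which passed the filter on low counts only because of its sh3 level. The called share was 100% in sh3, beside 26.9% of all tested genes. In sh1 it was 40%, which is near the 38.7% of all tested genes. ID4 (ENSG00000172201, chromosome 6, 19837370 to 19842197, plus strand) was the gene that fell in sh3. It had 28.5, 29.9 and 30.3 CPM in sh3, 17.0, 14.5 and 17.3 in sh1 and 35.3, 35.5 and 35.5 in shNC. The shNC libraries differed by less than 1 CPM, and all hairpin libraries lay below them. ID4 fell 2.18-fold in sh1 (-1.12 ± 0.068, adjusted p = 1.5e-07) and fell in sh3 (-0.26 ± 0.067, adjusted p = 0.012), a call that was lost without sh3 replicate 1 (-0.23, adjusted p = 0.052, range 0.0027 to 0.052). It shared with the other ID genes a higher level in sh3 than in sh1 (0.86 ± 0.068, adjusted p = 3.8e-06). ID4 made up 1.31% ± 0.0126 of the summed FPKM of the 4 ID genes in sh3, 1.24% ± 0.122 in sh1 and 2.13% ± 0.136 in shNC (SD, n = 3 each), and ID1 made up 91.4% ± 0.245, 91.6% ± 0.549 and 92.3% ± 0.363.

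**Figure D5:**
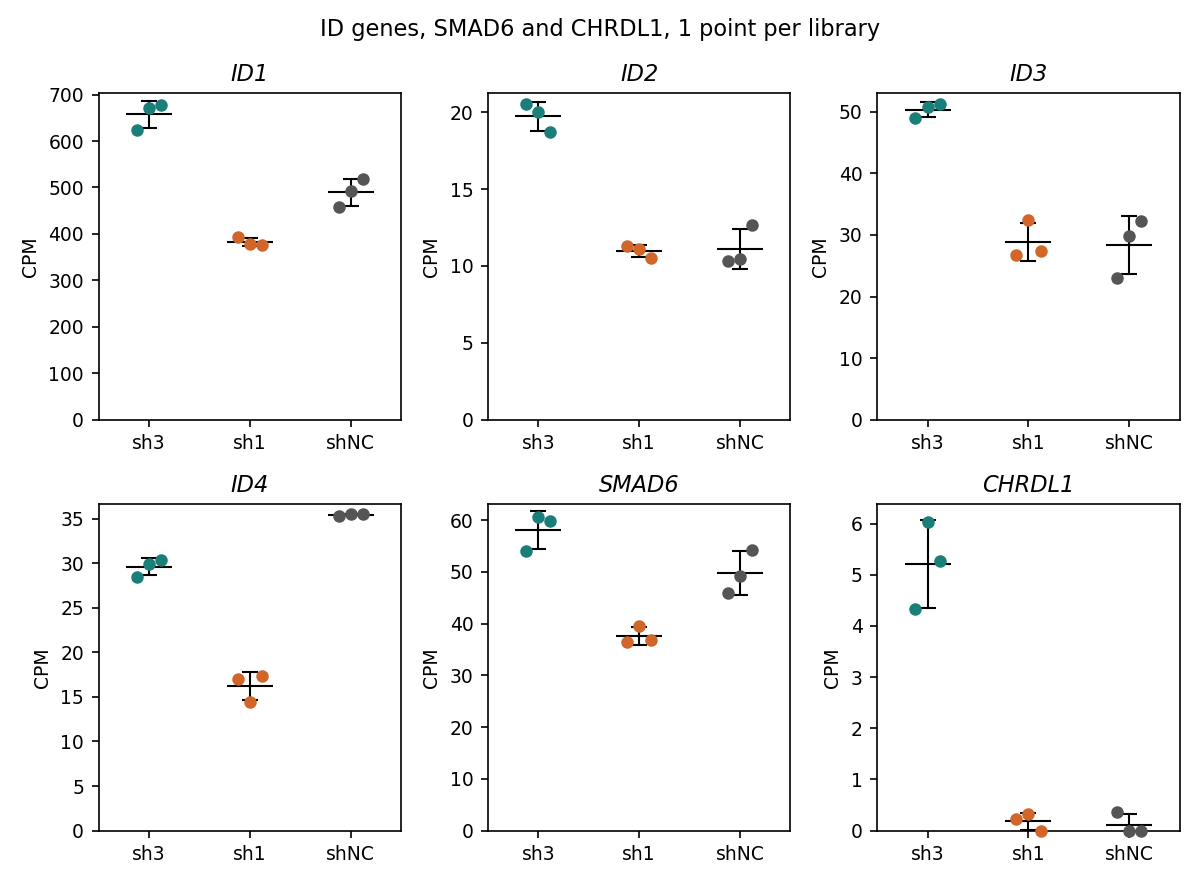
CPM per library for the 4 ID genes, SMAD6 and CHRDL1 in sh3, sh1 and shNC, with 1 point per library and a bar for mean ± SD over 3 libraries on axes that start at 0. ID1, ID2, ID3, ID4 and SMAD6 are higher in sh3 than in sh1 in every library, ID4 is highest in shNC, and CHRDL1 is at or near 0 outside sh3.

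CDKN2B (ENSG00000147883, chromosome 9, 22002903 to 22009305, minus strand), which encodes the cyclin-dependent kinase inhibitor p15 and is induced by TGF-beta in epithelial cells, was at the edge of detection. It had 27, 35 and 31 counts in sh3, 13, 11 and 4 in sh1 and 9, 2 and 3 in shNC. The sh3 libraries were all above the other 6, at 0.112 ± 0.0225 FPKM against 0.0148 ± 0.0112 FPKM in shNC (SD, n = 3). CDKN2B rose in sh3 (2.75 ± 0.701, adjusted p = 0.012), or 3.56 without shNC replicate 1, and gave 1.07 ± 0.718, adjusted p = 0.28 in sh1. Outside sh3, only 13 and 11 counts in sh1 reached the filter's minimum count of 10. The filter asked for this in 3 libraries, so CDKN2B was tested only because of its sh3 level. Its sh3 rise is therefore not independent of the filter. The sh3 call held under all 16 alternatives, no filter among them (adjusted p 0.0023 to 0.049). The direct difference of sh3 from sh1 was not called (1.68 ± 0.656, adjusted p = 0.085). It was called with only the 2 groups compared (1.68, adjusted p = 0.045) and with limma on log2(FPKM + 0.1) (0.69, adjusted p = 0.013) and on log2(FPKM + 1) (0.11, adjusted p = 0.017; 0.013 to 0.23 across alternatives).

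Other genes of the pathway were read from 3 lists. Of 61 tested components outside the 32 genes (further ligands, receptors, SMADs, antagonists and activators), 9 rose and 12 fell in sh3 and 18 rose and 13 fell in sh1, with medians of 0.02 and 0.04. In the direct comparison 6 were higher and 16 lower in sh3 than in sh1. The called shares were 34.4% in sh3, 50.8% in sh1 and 36.1% in the direct comparison, beside 26.9%, 38.7% and 25.9% of all tested genes. BMP6, another BMP ligand, had 1.71 ± 0.0483 FPKM in sh3, 2.16 ± 0.0233 in sh1 and 1.15 ± 0.0324 in shNC (SD, n = 3 each), and it rose by 0.58 in sh3 and 0.94 in sh1. GDF6, a ligand of the same family, rose in sh1 (1.9, adjusted p = 1.1e-06), as did BMPR1B, a BMP type I receptor (0.93, adjusted p = 5.4e-05), NBL1, a BMP antagonist (0.43), and ITGB6, part of an integrin that frees latent TGF-beta (0.42). In sh3 the rises were led, after BMP6, by FSTL3, a secreted binder of activins, with 132 ± 1.33 FPKM in sh3 against 90.0 ± 13.4 in shNC (0.56, adjusted p = 0.00027). The type I receptor ACVR1 followed (0.31), and LTBP4 (0.22) and the protease BMP1 (0.12) passed more weakly, losing their calls under 9 and 3 of 16 alternatives.

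Among components that fell, GDF15, a distant member of the ligand family induced by cell stress, had 0.910 ± 0.269 FPKM in sh3, 0.568 ± 0.231 in sh1 and 3.27 ± 0.992 in shNC (-1.84 in sh3 and -2.47 in sh1). SMOC2, a matricellular protein, fell by the most in sh1 (-2.80, against -1.04 in sh3), and ITGB8, part of another integrin that frees latent TGF-beta, gave -1.43 in sh3 and -1.72 in sh1. ACVRL1, a type I receptor known from endothelial cells, fell in sh1 (-1.36), as did the ligand gene GDF11 (-0.37). TRIM33, a ubiquitin ligase that binds SMADs, and TGIF2, a relative of TGIF1, fell in sh3 (-0.28 and -0.32). In the direct comparison SMOC2 (1.76), ACVRL1 (1.37), the co-receptor ENG (0.95) and HIPK2, a kinase that binds SMADs (0.27), were higher in sh3 than in sh1. GDF6 (-1.18), BMPR1B (-0.77), ITGB6 (-0.64) and NBL1 (-0.38) were lower there.

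Of 34 other genes known as SMAD2 and SMAD3 targets, 22 rose and 5 fell in sh3 and 20 rose and 4 fell in sh1, with medians of 0.39 and 0.51. In the direct comparison 7 were higher and 14 lower in sh3 than in sh1. The called shares were 79.4% in sh3, 70.6% in sh1 and 61.8% in the direct comparison, beside the same shares over all tested genes. TNC, the matrix protein tenascin C, had 3.10 ± 0.224 FPKM in sh3, 7.68 ± 0.0469 in sh1 and 1.05 ± 0.0405 in shNC (1.56 in sh3 and 2.90 in sh1). TNC was lower in sh3 than in sh1 (-1.34).

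In sh1 the rises were led by TAGLN, an actin-binding protein of smooth muscle (2.98), and included TNC, CCN1, a matricellular protein (1.96), and THBS1, which can release active TGF-beta from its latent form (1.78). TAGLN, CCN1 and THBS1 were lower in sh3 than in sh1 (-1.94, -1.46 and -1.45). In sh3 the rises were led by TNC and included ACTA2, a smooth muscle actin (1.49), PTHLH, the parathyroid hormone-related peptide (1.19), and TGFBI, a matrix protein named for its induction by TGF-beta (1.14). SNAI2 and ZEB1, transcription factors of epithelial-mesenchymal transition, fell in sh1 (-0.37 and -0.25), and JUNB, an AP-1 subunit, fell there too (-0.32). All 3 were higher in sh3 than in sh1, by 0.74, 0.37 and 0.66. The 5 that fell in sh3 were MMP13, a collagenase (-0.93), COL1A2, a collagen I chain (-0.62), the cytokine LIF (-0.30), CDKN1A, which encodes p21 (-0.24), and VEGFA, an endothelial growth factor (-0.23). That count of 5 became 1 without sh3 replicate 2 or shNC replicate 2, 2 without sh3 replicate 3 or shNC replicate 1, and 3 without sh3 replicate 1. Many genes of the list also answer to other pathways.

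Of 13 tested genes known as further BMP targets, 5 rose and 1 fell in sh3 and 3 rose and 4 fell in sh1, and 3 were higher and 0 lower in sh3 than in sh1. The called shares were 46.2% in sh3 and 53.8% in sh1, beside 26.9% and 38.7% of all tested genes, and in the direct comparison 23.1%, which is near the 25.9% of all tested genes. MSX1, a homeobox factor, had 34.4 ± 1.55 FPKM in sh3, 17.3 ± 0.531 in sh1 and 27.6 ± 1.43 in shNC. It rose in sh3 (0.32, adjusted p = 0.00045), fell in sh1 (-0.64, adjusted p = 9.6e-07), and was higher in sh3 than in sh1 by 0.96. HEY1, a repressor shared with Notch signalling, fell in sh1 (-0.55) and was higher in sh3 than in sh1 (0.42), while RUNX2, a bone transcription factor, fell in both (-0.31 in sh3 and -0.28 in sh1). MSX2, the relative of MSX1, passed narrowly in sh3 (0.44) and sh1 (0.40), and lost its call under 12 and 10 of 16 alternatives. Without shNC replicate 3 it gave 0.32 in sh3 (adjusted p = 0.13, edgeR) and 0.28 in sh1 (adjusted p = 0.15). The 5 rises in sh3 became 1 without sh3 replicate 2, 2 without sh3 replicate 3 or shNC replicate 1, and 3 without sh1 replicate 1 or shNC replicate 2, and the 3 rises in sh1 became 1 without sh1 replicate 3.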

How the data were processed

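mRNA was captured on oligo(dT) beads, the second cDNA strand carried dUTP and was digested, and reads were paired, per the labels' protocols. The submitters' processing notes list the tools DESeq2, edgeR, StringTie 2.1.6, HISAT2 2.2.1 and cutadapt 1.9 and the build GRCh38. The role of each tool, the annotation and the strand setting are not given in these sources. As deposited, the authors' table held whole-number counts and FPKM per gene, per the file headers. Counts were tested with edgeR 4.0.16 (filterByExpr with a minimum count of 10, TMM, glmQLFit, glmQLFTest, two-sided, Benjamini-Hochberg) with 1 mean per group over 9 libraries, on a script first tested on simulated data. The standard error is the absolute log2 change divided by the square root of F. A count floor of 3 is 0.0433 to 0.052 CPM and covers counting error only. The labels do not say that replicate numbers pair libraries, so no block was used. Same-numbered libraries also did not deviate together. Genes with per-library values are those called in a contrast with at least a 1.5-fold change, and TGFB1, TGFB3, TGFBR2 and SKIL, added after their values were seen. From each other list up to 5 called genes per direction and contrast qualified, by size, at a mean of at least 1 FPKM, and some of these are named. The 32 genes and all lists were chosen with earlier results of these data known. Alternatives were DESeq2 1.42.0, library totals, no filter, a replicate block, limma 3.58.1 on log2(FPKM + 1) and log2(FPKM + 0.1), only the 2 groups compared, and leaving out each library. A marker gene on more than 1 row of the table was left out. Some results by gene name are not reported here.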

Additional observations from a re-analysis of the deposited data

Results flagged for a closer look

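For 3 of the 32 genes the hairpins went opposite ways from shNC and the direct test of the difference was called. How many of all tested genes did so was not counted, so the 3 are a list and not a result about the pathway. Opposite calls against the same shNC libraries nearly fix a called direct difference, so that call is not added support. INHBB differed by 2.65 on the log2 scale in sh3 over sh1 (adjusted p = 0.00028, edgeR), with 1.34 in sh3 and -1.31 in sh1 over shNC. ID1 differed by 0.78 (adjusted p = 3.2e-07), with 0.43 and -0.35. SMAD6 differed by 0.63 (adjusted p = 3.9e-05), with 0.22 and -0.40. For each of these genes every sh3 library lay above every sh1 library, and the direct call held under all 16 alternatives. Against shNC only ID1 held its calls under all of them. The sh3 call of SMAD6 was lost under 6, and its sh3 and shNC libraries overlapped. Each INHBB call against shNC was lost under 1.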

How the results depend on the processing

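Of the called changes among the 32 genes, 0 reversed under any of 16 alternatives. The call held in 293 of 320 recomputed values for sh3 over shNC (6 genes lost it somewhere), in 253 of 256 for sh1 over shNC (2 genes) and in 266 of 288 for sh3 over sh1 (5 genes). Same-numbered libraries shared no deviation (correlations -0.105 to 0.0435, against -0.113 to 0.14 for different numbers), and with the replicate block 15 genes rose and 5 fell in sh3, 9 rose and 7 fell in sh1, and 12 were higher and 5 lower in sh3 than in sh1. The 5 genes that fell in sh3 were 3 with no filter, and 3 to 7 when single libraries were left out. The 5 SMAD2 and SMAD3 targets that fell in sh3 were 3 with no filter, limma on either FPKM scale or only the 2 groups, and 1 to 6 when single libraries were left out. The BMP targets that rose in sh1 were 1 with limma on either scale and 1 to 3 when single libraries were left out. Those that rose in sh3 were 3 with library totals, no filter, limma on log2(FPKM + 0.1) or only the 2 groups, and 1 to 4 when single libraries were left out. STXBP6 ranged from -0.15 to 2.60 in sh1 and 1.22 to 3.54 in sh3. The cause of these moves was not tested. Signs turned only in values that were not called. In sh1 ID3 gave -0.01 and TGFBR3 -0.02 with library totals, TGFBR3 gave -0.00 with limma on log2(FPKM + 1), and in sh3 LDLRAD4 gave 0.00 with no filter. When single libraries were left out, sh1 values ran -0.14 to 6.52 for CHRDL1 (the highest, without shNC replicate 1, was called), -0.07 to 0.08 for ID2, -0.10 to 0.13 for ID3, -0.07 to 0.21 for TGFBR3, -0.03 to 0.01 for BMPR2, -0.02 to 0.01 for SMAD2, -0.05 to 0.31 for SKIL and -0.07 to 0.11 for LTBP2. The sh3 values ran -0.01 to 0.33 for INHBA, -0.33 to 0.28 for TGFB3, -0.05 to 0.00 for TGFBR1 and -0.06 to 0.05 for LDLRAD4, and BMPR1A ran -0.01 to 0.03 in sh3 over sh1. On log2(FPKM + 1), a scale that understates low genes, CHRDL1 gave 1.11 and CDKN2B 0.13 in sh3, and INHBA gave 0.87 in sh1. The calls of CHRDL1, CDKN2B and INHBB rest on few counts, which limits their precision.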
